A study of Rattus norvegicus with 43 samples.

Results

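Untreated mammary gland was compared with untreated lung over 7 of the 43 arrays of the series, to describe how the organs differ at baseline, before any agent is considered. The arrays were the 4 diet mammary gland arrays, numbered 1 to 4, and the 3 diet lung arrays, numbered 2 to 4, and the features were the 8740 probe sets of the array that are not controls. The rule used no measured value, so every difference below could be tested. The tissues came from female rats of the outbred Sprague-Dawley strain that were 100 days old when a period of 7 days on diet alone began, so neither group had received an agent or a vehicle by gavage. The study as a whole asked how 3 retinoids change expression in liver, lung and mammary gland, and its treated groups received 9-cis retinoic acid (9cRA, a ligand of retinoic acid and retinoid X receptors) at 100 mg per kg diet, 4-hydroxyphenylretinamide (4HPR, an amide made from retinoic acid) at 782 mg per kg diet, or Targretin (bexarotene, a ligand of retinoid X receptors) at 60 mg per kg body weight by gavage. The tissue pieces are whole organ samples described as normal, and the reproductive state of the rats is not given in the sources used here.

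The mammary gland of an adult female rat consists of a branching epithelium of luminal and basal cells that lies within a large pad of fat and connective tissue, and its luminal cells make the caseins and whey proteins of milk. The lung consists of gas-exchanging alveoli lined by flat type 1 cells and surfactant-secreting type 2 cells, conducting airways with club and ciliated cells, a dense capillary bed and many resident immune cells. In bulk tissue, fewer cells of a type and less RNA per cell cannot be told apart, so each difference is a difference of organs and not of cells.

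The values are signals per probe set, in the linear units of the MAS5 software, scaled by the authors to a common trimmed mean. A difference is given as mammary gland minus lung, or as lung minus mammary gland where lung is named as higher, on a log2 scale after a pseudocount of 38.3 was added to each signal, with its standard error from limma. A difference of 1 on this scale is close to a doubling for bright probe sets and understates the change of dim ones. A difference passed at an adjusted p under 0.05, and a p-value measures no more than the variation among these arrays, which may be technical because no label states that each array was a different rat. Group levels are means ± SD over 4 mammary gland and 3 lung arrays, and liver levels, where given, are means over the 4 diet liver arrays. Where a gene had several probe sets, the value is that of the probe set with the highest mean signal over the 7 arrays.

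Some arrays gave high signals for transcripts of another organ, which touches the results below. Albumin, Alb, the main protein that hepatocytes secrete into plasma, gave signals of 43645, 39024, 37890 and 11379 on mammary gland arrays 1 to 4 and 14890, 115 and 152 on lung arrays 2 to 4, against 86887 ± 14889 in liver. Transthyretin, Ttr, another liver-made plasma protein, gave 13053, 15078, 15054 and 11259.8 on mammary gland arrays 1 to 4 and 3794, 79.9 and 122 on lung arrays 2 to 4. Hepatocyte transcripts were thus high on every mammary gland array and on lung array 2, and near the bottom of the range on lung arrays 3 and 4. The summed signal of the 24 measured hepatocyte markers was 156289 to 218564 on the mammary gland arrays, 75844 on lung array 2, 19544 and 20155 on lung arrays 3 and 4, and 986984 to 1176170 on the liver arrays. In the other direction, Sftpc, the surfactant protein of alveolar type 2 cells, gave 7295 and 7756 on mammary gland arrays 1 and 4 and 659.8 and 723 on arrays 2 and 3. Lung array 2 also correlated less with lung arrays 3 and 4 (0.907 and 0.917, Pearson's r of log2 signals over the probe sets tested, as a description) than those did with each other (0.978), and mammary gland arrays 2 and 3 (0.965) and 1 and 4 (0.947) were closer to each other than across these pairs (0.921 to 0.936). The part of such transcripts in each difference was not tested. Values without lung array 2, without mammary gland arrays 1 and 4, or without all of these arrays are given beside the results they touch.

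**Figure D1:**
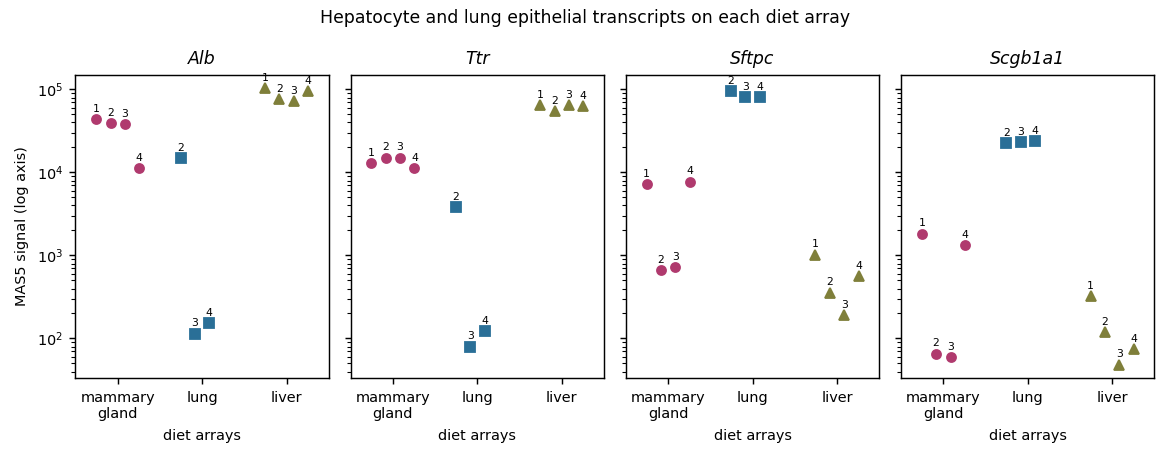
Signals of hepatocyte transcripts (Alb, Ttr) and lung epithelial transcripts (Sftpc, Scgb1a1) on each diet array, on a log axis in MAS5 signal units, with 1 point per array and the array number beside it. Alb lies between 11379 and 43645 on the mammary gland arrays and at 14890 on lung array 2, and Sftpc lies at 7295 and 7756 on mammary gland arrays 1 and 4 and at 660 and 723 on arrays 2 and 3.

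Of the 8740 probe sets, 5719 had a signal above the 40th percentile of their array on at least 3 of the 7 arrays and were tested. The arrays of a single organ are enough to meet this filter. Of these, 2508 passed (43.9%): 988 were higher in mammary gland (17.3%) and 1520 were higher in lung (26.6%). With a difference of at least 1, 643 were higher in mammary gland (11.2%) and 1126 in lung (19.7%), and with at least 3, 117 (2.05%) and 139 (2.43%), or 4.48% in either direction. With at least 2 the shares were 4.55% higher in mammary gland and 7.48% higher in lung. The groups did not overlap for 2911 probe sets (50.9%). Lung arrays had a higher median signal (466.2 to 512.2) than mammary gland arrays (351.4 to 399.6), and the median difference over all probe sets tested was -0.17. The split of directions follows this scaling: 39.4% of the passing probe sets were higher in mammary gland in the deposited scaling, 49.7% after quantile normalization, where the median difference was 0.04, and 55.3% after each array was shifted to the same median, where it was 0.10. The shares of members given below are therefore read against 17.3% and 26.6%, and small differences have no direction that holds under every scaling. Without mammary gland arrays 1 and 4 and lung array 2, 3131 probe sets passed, of which 41.8% were higher in mammary gland.

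**Figure D2:**
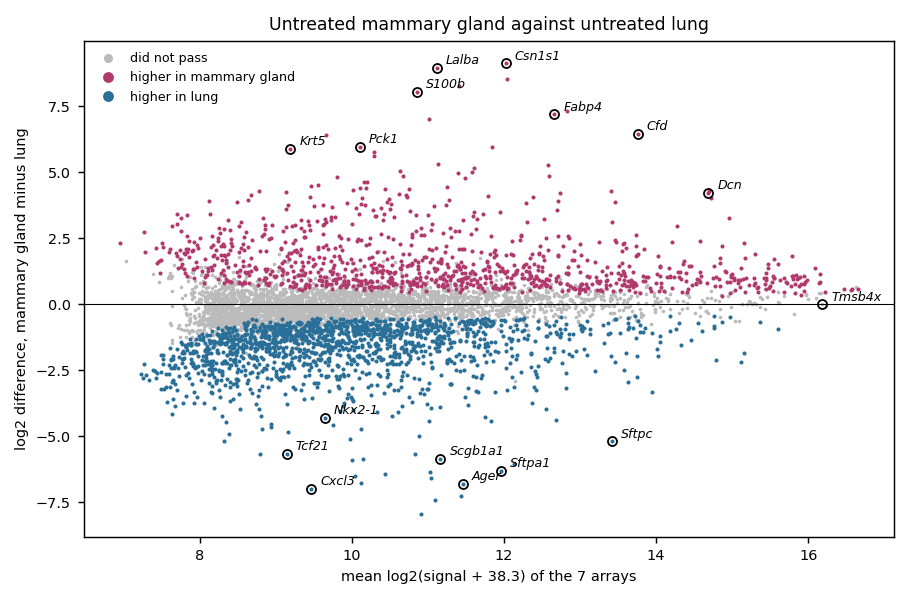
Difference between the organs (log2, mammary gland minus lung) against the mean log2 signal of the 7 arrays for the 5719 probe sets tested; coloured points passed at an adjusted p under 0.05, and 16 named genes are marked. The milk proteins, Fabp4 and S100b lie at the top, the surfactant proteins, Ager and Scgb1a1 at the bottom, and Tmsb4x lies on the zero line.

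Milk protein genes showed some of the largest differences. Csn1s1, the alpha-S1 casein, had signals of 55000.5, 59872, 59741 and 78482 on mammary gland arrays 1 to 4 and 39.8, 97.6 and 92.9 on lung arrays 2 to 4. Its difference was 9.13 ± 0.24 (adjusted p = 6.22e-08), the largest among the passing probe sets with 1 gene symbol. Lalba, alpha-lactalbumin, the regulatory subunit of lactose synthase, gave 16578, 37281, 42238 and 39171 on mammary gland arrays 1 to 4 and 32.5, 19.1 and 26.8 on lung arrays 2 to 4. The groups were far apart for both genes, and no lung array came near any mammary gland array. The kappa casein Csn3 was higher in mammary gland by 7.34 ± 0.29 (64482 ± 7371 in mammary gland and 389 ± 198 in lung), the beta casein Csn2 by 7.02 ± 0.51 (18538 ± 7939 in mammary gland and 104 ± 74.2 in lung), and Wap, the whey acidic protein, by 5.61 ± 0.71 (8788 ± 5418 in mammary gland and 105 ± 50.8 in lung), or by 6.34 without mammary gland array 1. Csn1s2a, a casein of the alpha-S2 type, was also higher (3.26 ± 0.63), as was Glycam1, a mucin-like protein secreted with milk (4.37 ± 0.41, adjusted p = 7.24e-05). Olah, the thioesterase that ends fatty acid chains early to give the medium-chain fatty acids of milk fat, had signals of 7851, 17136, 17138 and 8245 on mammary gland arrays 1 to 4 and 383, 378 and 263 on lung arrays 2 to 4. Xdh, xanthine dehydrogenase, which also serves in milk fat secretion, was higher by 1.92 ± 0.37. Liver levels of the caseins were as low as those in lung, for example 125 ± 134 for Csn1s1, and their differences remained large without mammary gland arrays 1 and 4 and lung array 2 (8.81 for Csn1s1 and 9.34 for Lalba).

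The proximal promoters of the casein genes Csn1s1 and Csn2 are shown, chosen among the caseins because both hold the palindrome TTCNNNGAA, the sequence recognised by STAT transcription factors, which carry the prolactin signal to milk genes. The sequences are from RefSeq's table for the rat assembly GRCr8 and run from 250 bases before to 50 bases after the annotated start; capitals mark the palindrome. Csn1s1 is annotated on the minus strand at chr14:20638800-20639099 and Csn2 on the plus strand at chr14:20601574-20601873, so they are neighbours on chromosome 14.
Csn1s1: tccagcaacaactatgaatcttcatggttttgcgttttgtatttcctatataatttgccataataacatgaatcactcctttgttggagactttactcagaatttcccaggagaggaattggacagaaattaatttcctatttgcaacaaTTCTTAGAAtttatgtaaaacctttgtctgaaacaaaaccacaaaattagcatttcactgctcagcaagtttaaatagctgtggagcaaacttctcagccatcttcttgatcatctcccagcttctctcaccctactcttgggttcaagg
Csn2: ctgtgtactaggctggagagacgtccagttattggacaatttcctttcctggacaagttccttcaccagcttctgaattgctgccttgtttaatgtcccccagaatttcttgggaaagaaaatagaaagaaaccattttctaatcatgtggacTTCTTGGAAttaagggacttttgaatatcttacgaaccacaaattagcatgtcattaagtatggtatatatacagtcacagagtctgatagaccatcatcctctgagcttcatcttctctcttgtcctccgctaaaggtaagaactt
The palindrome begins 100 bases before the start in Csn1s1 and 97 bases before it in Csn2. It occurs in 8.68% of all 27457 promoters of the table and in 12% of the 142 promoters found for the 179 genes higher in mammary gland by at least 2, and in 5.39% of the 241 promoters found for the 295 genes higher in lung by at least 2. On the same promoters, TTGCNNAA, the form recognised by C/EBP factors, searched on both strands, occurs in 10.5% of all, 24.6% of those higher in mammary gland and 9.96% of those higher in lung, and the TATA box TATAAA in 14.3%, 22.5% and 14.1%. Over the 2836 promoters found for the 3436 genes tested, the shares were lower than over the whole table, at 6.63% for TTCNNNGAA, 9.63% for TTGCNNAA and 10% for TATAAA. Motifs were counted apart, so that a promoter can hold several, and these shares are descriptions without a test.

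**Figure D3:**
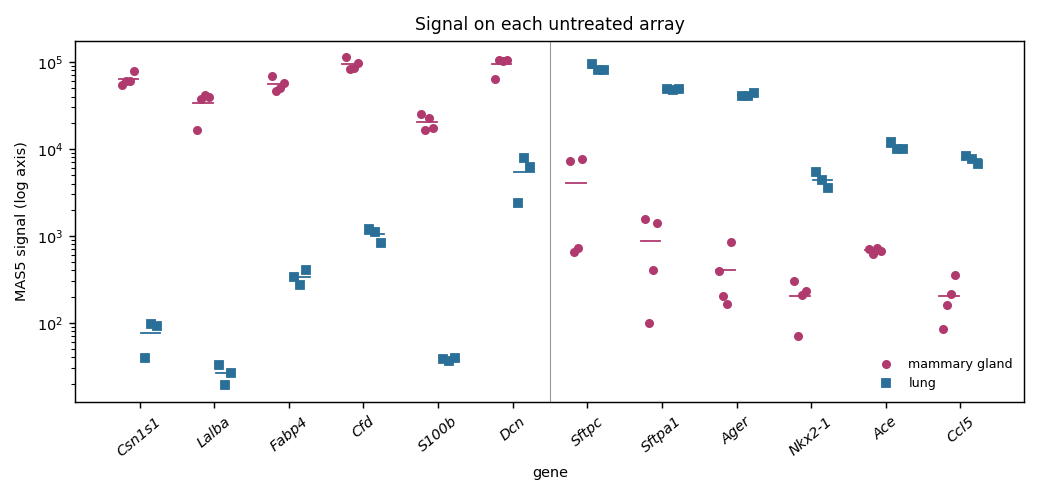
Signal on each of the 7 arrays, on a log axis in MAS5 signal units, for 12 genes with large differences, 6 higher in mammary gland and 6 higher in lung; 1 point per array, with bars at the group means. Circles are mammary gland and squares lung, and in each of the 12 genes the groups do not overlap.

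Other epithelial genes divided between the organs. Of 29 genes listed as mammary luminal markers, 21 were on the array and 20 passed the filter on low values. Of these, 13 were higher in mammary gland, 3 were higher in lung and 4 did not pass, with a median of 1.30. Areg, amphiregulin, the ligand of the EGF receptor that acts downstream of oestrogen in ducts, was higher in mammary gland by 3.51 ± 0.44, with 10094 ± 5483 in mammary gland and 756 ± 177 in lung. The progesterone receptor, Pgr, was higher by 1.43 ± 0.32, at the low level of 484 ± 146 in mammary gland and 155 ± 50.3 in lung. Of the keratins of simple epithelium, Krt18 was higher in mammary gland (1.17 ± 0.22) and Krt19 was higher in lung by 0.90 ± 0.27, which did not pass without mammary gland array 2 or 3 or lung array 3 or 4 (adjusted p = 0.0589 to 0.0858). Muc1, a mucin of the apical membrane, had signals of 10252, 7540.5 and 7316 on lung arrays 2 to 4 and 998, 886, 911 and 1239 on mammary gland arrays 1 to 4, and was higher in lung by 3.001 ± 0.20 (adjusted p = 1.11e-05). The receptor Erbb3 was also higher in lung, by 1.30 ± 0.24. Members on both sides, such as Krt18 and Krt19, are genes of simple epithelium and not of the mammary gland alone. Why the members divided was not tested.

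Basal cell and skin keratins were higher in mammary gland. Krt5, the keratin of basal epithelial cells, gave 3438, 3576, 3408 and 2889.6 on mammary gland arrays 1 to 4 and 14.1, 19.5 and 22.2 on lung arrays 2 to 4. The organs differed by 5.88 ± 0.19 (adjusted p = 1.73e-07). Its partner Krt14 was higher by 1.76 ± 0.18, Krt10, a keratin of the upper epidermis, by 1.38 ± 0.29, and Lgals7, a galectin of stratified epithelium, by 4.28 ± 0.21. Jup, plakoglobin, a protein of desmosomes and adherens junctions, was higher in lung instead, by 2.13 ± 0.28. In all, 10 of 19 listed genes were on the array, 7 passed the filter, 4 were higher in mammary gland and 1 in lung.

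Genes of fat cells were higher in mammary gland as a group. Fabp4, the fatty acid carrier of adipocytes, gave 68424, 46453, 50918 and 56908 on mammary gland arrays 1 to 4 and 336, 276 and 406 on lung arrays 2 to 4. This was a difference of 7.21 ± 0.19 (adjusted p = 6.22e-08). Cfd, complement factor D or adipsin, which fat cells secrete, gave 113790.4, 83169, 85726 and 97841 on mammary gland arrays 1 to 4 and 1192, 1118 and 838 on lung arrays 2 to 4. Its difference was 6.46 ± 0.18. For both genes every mammary gland array lay far above every lung array. Of 31 genes listed as adipocyte markers, 23 were on the array and 21 passed the filter; 17 were higher in mammary gland and 4 did not pass, with a median of 2.40 against -0.17 over all probe sets. Pck1, phosphoenolpyruvate carboxykinase, which supplies the glycerol of triglycerides in fat, was higher by 5.97 ± 0.31, from 69.7 ± 41.2 in lung to 6658 ± 2009.7 in mammary gland, with 20964 ± 4829 in liver, where the enzyme makes glucose. The carbonic anhydrase Car3 was higher by 5.17 ± 0.34, the glycerol channel Aqp7 by 3.21 ± 0.30, the beta-3 adrenergic receptor Adrb3 by 3.69 ± 0.38 and the insulin-responsive glucose transporter Slc2a4 by 2.89 ± 0.35. Pparg, the nuclear receptor that directs fat cell differentiation, was higher by 1.91 ± 0.26 (2957 ± 943 in mammary gland and 732 ± 61.4 in lung). Cidea, a lipid droplet protein, was higher by 2.54 ± 0.16, and Fabp3 by 3.19 ± 0.39, while Ucp1, the uncoupling protein that defines brown fat, did not pass the filter on low values (93.8 ± 79.9 in mammary gland and 151 ± 90.8 in lung). Of 3 brown adipocyte markers that passed the filter (5 measured of 9 listed), Cidea and Fabp3 were higher in mammary gland and 1 was higher in lung. The probe set of leptin with the highest signal, Lep, did not pass (4445 ± 909.8 in mammary gland and 4977 ± 568 in lung, 95% interval of the difference -0.63 to 0.27), and its signal in liver was 4669 ± 680.2, within the range of the other organs. Without mammary gland arrays 1 and 4 and lung array 2, 16 of the 21 adipocyte markers were higher in mammary gland and 1 was higher in lung. Hepatocyte transcripts were also high on the mammary gland arrays kept.

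By the 1 probe set read per gene, genes that store and burn fat were higher in mammary gland or did not pass, with 1 exception, while those that make it were mixed. Of 10 genes of fatty acid and triglyceride synthesis that passed the filter (13 measured of 22 listed), 4 were higher in mammary gland, 1 was higher in lung and 5 did not pass; without mammary gland arrays 1 and 4 the counts were 4 and 3. Acsl1, which activates long-chain fatty acids, gave 29934, 27183, 29391 and 19359 on mammary gland arrays 1 to 4 and 1017, 798 and 777 on lung arrays 2 to 4. The organs differed by 4.87 ± 0.20. Scd, the stearoyl-CoA desaturase, was higher in mammary gland by 3.28 ± 0.17 and malic enzyme, Me1, which supplies NADPH for lipid synthesis, by 4.09 ± 0.21. The related desaturase Scd2 was higher in lung by 1.96 ± 0.27 (17077 ± 4729.5 in lung and 4346 ± 1138 in mammary gland). Fasn, fatty acid synthase, had means of 14255 ± 8807 in mammary gland and 5912 ± 639 in lung and did not pass (1.06 ± 0.43, adjusted p = 0.0735), although it did without mammary gland array 2 or 3 (adjusted p = 0.0443 and 0.0313). It also passed with arrays shifted to the same median (0.0274) and in the fit of all 43 arrays (0.0106). Without mammary gland arrays 1 and 4 its difference was 0.30 (adjusted p = 0.149), and without lung array 2 it was 1.02 (0.144). Of the 16 genes of lipid uptake, droplets and lipolysis that passed the filter (17 measured of 21 listed), 9 were higher in mammary gland and 1 in lung. They include lipoprotein lipase, Lpl (2.39 ± 0.17), hormone-sensitive lipase, Lipe (2.22 ± 0.21), and the droplet proteins Plin1 (2.15 ± 0.32) and Plin2 (2.12 ± 0.26). Of 19 fatty acid oxidation genes (21 measured of 25 listed), 10 were higher in mammary gland and 9 did not pass. Decr1, a reductase of unsaturated acyl-CoA, was higher by 1.91 ± 0.17, and Ehhadh, the peroxisomal bifunctional enzyme, by 1.99 ± 0.63. Ehhadh had a mean of 4250.5 ± 1029 in liver, its groups overlapped, and the part of hepatocyte transcripts was not tested. It did not pass without mammary gland array 1 or 4 or without lung array 3 or 4 (adjusted p = 0.0689 to 0.115), and was higher by 2.73 without lung array 2. Without mammary gland arrays 1 and 4 together its difference was 1.34 (adjusted p = 0.172). Without mammary gland arrays 1 and 4 and lung array 2, 10 genes of fatty acid oxidation were higher in mammary gland and 1 was higher in lung.

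Genes of the citrate cycle and of oxidative phosphorylation were mostly higher in mammary gland, where the first list also holds cytosolic enzymes of the same reactions. Of 15 genes of the citrate cycle and pyruvate handling (16 measured of 24 listed), 12 were higher in mammary gland and 1 was higher in lung, with a median of 1.24. Pc, pyruvate carboxylase, which refills the cycle, gave 8127, 4763, 5817 and 6703 on mammary gland arrays 1 to 4 and 199.8, 304 and 313 on lung arrays 2 to 4. This was a difference of 4.36 ± 0.24 (adjusted p = 3.86e-06). Aco1 was higher by 2.40 ± 0.19, the cytosolic isocitrate dehydrogenase Idh1 by 2.29 ± 0.14 and the malate dehydrogenase Mdh1 by 2.08 ± 0.19. Citrate synthase, Cs, the exception, was higher in lung by 1.25 ± 0.36, but did not pass without lung array 3 or 4 (adjusted p = 0.0621 and 0.0759) or after quantile normalization (0.0525). Of 24 genes of oxidative phosphorylation (24 measured of 31 listed), 17 were higher in mammary gland and 2 in lung, with a median of 0.81. Uqcrc2, a core protein of complex III, was higher by 2.01 ± 0.16, Cox4i1, a subunit of cytochrome oxidase, by 1.52 ± 0.15, and Atp5po, a stalk subunit of the ATP synthase, by 1.44 ± 0.14. Atp5f1d and the channel protein Vdac1 were higher in lung, by 1.43 ± 0.27 and 1.89 ± 0.51. After quantile normalization, 15 of the 24 were higher in mammary gland and 2 in lung.

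Members of a family often went separate ways, as the glycolytic isoenzymes show. Ldhb, the heart-type lactate dehydrogenase subunit, was higher in mammary gland by 3.58 ± 0.19 (19397 ± 3364 in mammary gland and 1581 ± 267 in lung). Aldoc, an aldolase found in brain, was higher by 3.29 ± 0.25, while Aldoa, the aldolase of muscle and most tissues, was higher in lung by 2.68 ± 0.49. Hexokinase 2, Hk2, the form of insulin-sensitive tissues, was higher in mammary gland by 3.61 ± 0.72, and by 4.71 without lung array 2. Hexokinase 1, Hk1, did not pass (-0.57 ± 0.21, adjusted p = 0.0508), but lies at the threshold: it passed without mammary gland array 2 (adjusted p = 0.0199), with array weights (0.0154), in the fit of all 43 arrays (0.0397), with the larger pseudocount (0.0489) and without the liver-dominant probe sets (0.0481). Of the glucose transporters, Slc2a4 was higher in mammary gland by 2.89 and Slc2a1 by 0.92 ± 0.29, which did not pass with any 1 lung array left out or without mammary gland array 2, 3 or 4 (adjusted p = 0.0541 to 0.0959). Of the water channels, Aqp7 was higher in mammary gland, and Aqp1 of capillaries and Aqp5 of alveolar type 1 cells were higher in lung, by 1.38 ± 0.17 and 1.79 ± 0.17. Of the carbonic anhydrases, Car3 was higher in mammary gland by 5.17, and Car2 and the membrane-bound Car4 were higher in lung by 1.05 ± 0.34 and 1.77 ± 0.22. Car2 did not pass with any 1 lung array left out or without mammary gland array 4 (adjusted p = 0.0746 to 0.0818). These are differences of each probe set between the organs, and the levels of different probe sets are not compared.

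Fibroblast markers were higher in mammary gland, and other genes of connective tissue were divided. Dcn, decorin, a proteoglycan that binds collagen fibrils, gave 63079.5, 105741, 104049 and 106715 on mammary gland arrays 1 to 4 and 2397, 7856 and 6199 on lung arrays 2 to 4. Its difference was 4.23 ± 0.38 (adjusted p = 5.63e-05). Of 16 genes listed as fibroblast markers, 12 were measured and passed the filter, and 11 were higher in mammary gland. The count was also 11 without mammary gland arrays 1 and 4 and lung array 2. The fibrillar collagens Col1a1 and Col3a1 were higher by 1.75 ± 0.23 and 1.91 ± 0.16, lumican, Lum, by 2.69 ± 0.43, periostin, Postn, by 2.22 ± 0.17, and the surface protein Thy1 by 3.65 ± 0.20. Of 20 genes of collagens and fibrillar matrix that passed the filter (22 measured of 29 listed), 11 were higher in mammary gland, 5 were higher in lung and 4 did not pass. Genes of elastic fibres and basement membrane lay the other way: of 10 that passed the filter (13 measured of 25 listed), 5 were higher in lung and 5 did not pass. Eln, elastin, the recoil protein of the airways and alveoli, was higher in lung by 0.99 ± 0.20 (7369.5 ± 1802 in lung and 3650.4 ± 474 in mammary gland). Ltbp2, a protein of elastic microfibrils, was higher in lung by 3.11 ± 0.37, and the collagen chain Col4a3 of the alveolar and glomerular basement membrane by 1.21 ± 0.24. Of 17 matrix proteases and inhibitors (21 measured of 27 listed), 7 were higher in mammary gland and 4 in lung. Among genes that shape the matrix, Plod2 and P4ha1, which hydroxylate collagen, were higher in lung by 2.13 ± 0.32 and 1.54 ± 0.17, and the inhibitor Timp3 by 2.73 ± 0.40, while the protease Mmp12 was higher in mammary gland by 2.12 ± 0.42 and cathepsin K, Ctsk, by 2.30 ± 0.19.

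**Figure D4:**
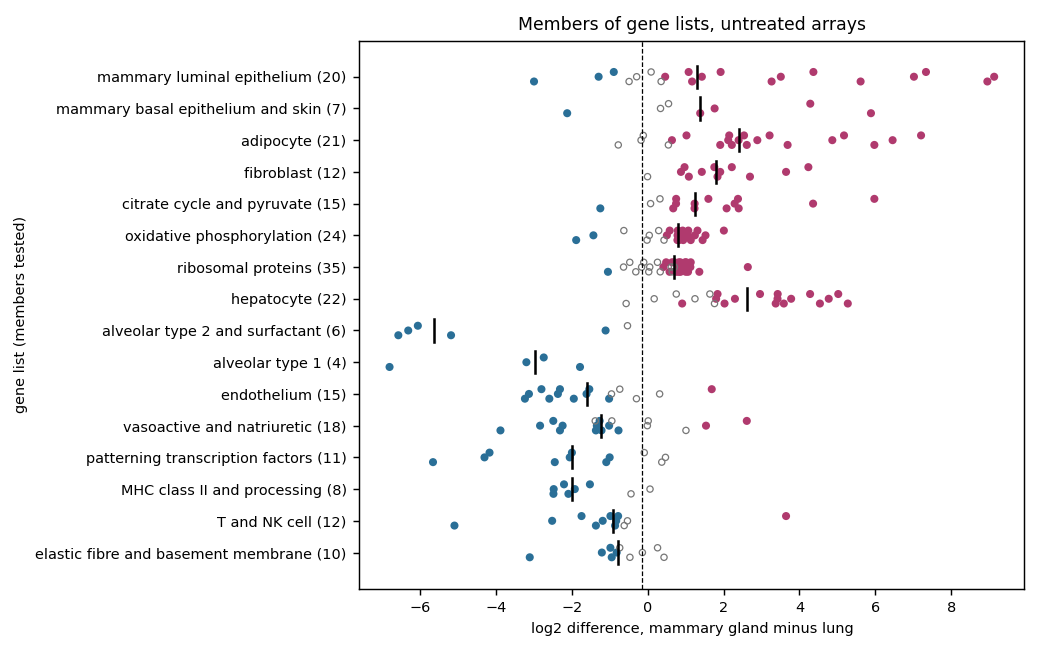
Difference between the organs (log2, mammary gland minus lung) for each member that passed the filter in 16 gene lists, with 1 point per gene, filled where the adjusted p was under 0.05, and a bar at the list's median; the dashed line marks the median of -0.17 over all 5719 probe sets. Adipocyte and fibroblast markers lie mostly to the right, and alveolar, endothelial, MHC class II and vasoactive genes mostly to the left.

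Several mammary gland transcripts belonged to none of these groups. Sncg, gamma-synuclein, which is found in peripheral neurons and in fat cells, gave 42489, 28192, 26110.5 and 32521 on mammary gland arrays 1 to 4 and 73.7, 57.7 and 64.5 on lung arrays 2 to 4. The difference came to 8.26 ± 0.20 (adjusted p = 6.22e-08). S100b, a calcium-binding protein of glia that fat cells also make, gave 25373, 16663, 22618 and 17252 on mammary gland arrays 1 to 4 and 37.9, 36 and 39.5 on lung arrays 2 to 4. The difference came to 8.05 ± 0.20. Sox10, a transcription factor of Schwann cells and of some mammary epithelial cells, was higher by 3.39 ± 0.38 (626 ± 272 in mammary gland and 21.6 ± 9.86 in lung). Of the 13 measured nerve and Schwann cell markers, 5 (Mbp, Nefl, Nefm, Calca and Dbh) did not pass the filter on low values. Among the 8 tested, 2 were higher in mammary gland, 2 were higher in lung and 4 did not pass. Cxcl13, the chemokine that draws B cells into lymphoid follicles, gave 6238, 17666, 16120 and 7733 on mammary gland arrays 1 to 4 and 337, 256 and 147 on lung arrays 2 to 4, and Pcp4, a calmodulin-binding peptide, gave 2103, 5289, 5008 and 3359.6 on mammary gland arrays 1 to 4 and 66.4, 119 and 106 on lung arrays 2 to 4. For Cxcl13, Pcp4 and Olah, mammary gland arrays 2 and 3 lay above arrays 1 and 4, but all 4 lay above every lung array. Of 7 mast cell markers that passed the filter (12 measured of 17 listed), 4 were higher in mammary gland and the receptor Kit was higher in lung by 1.24 ± 0.28. The chymase Cma1 was higher in mammary gland by 2.79 ± 0.17 and carboxypeptidase Cpa3 by 2.21 ± 0.24. Ghr, the growth hormone receptor, was higher by 4.21 ± 0.18 (23962 ± 4169 in mammary gland and 1250.4 ± 146 in lung), and Fst, follistatin, which binds activins, by 3.18 ± 0.28. Egr1, an immediate early transcription factor, was higher by 3.12 ± 0.27 (13319.8 ± 4612 in mammary gland and 1432 ± 110.4 in lung), while Jun and the phosphatase Dusp1, also immediate early genes, were higher in lung by 1.47 ± 0.19 and 1.16 ± 0.21.

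Liver-made transcripts were among the differences too. Of 22 hepatocyte markers that passed the filter (24 measured of 25 listed), 16 were higher in mammary gland and 6 did not pass, and 20 were higher without lung array 2. Alb was higher by 5.27 ± 1.42 (adjusted p = 0.015), although the groups overlapped, and Ttr by 5.02 ± 1.02. Without lung array 2 the difference was 7.42 for Alb and 6.62 for Ttr, and without lung array 3 or 4 Alb did not pass (adjusted p = 0.0613 and 0.0629). Of the 301 tested probe sets whose mean diet liver signal was at least 4 times the means of both organs, 112 were higher in mammary gland and 27 in lung, and with them left out 2415 of 5418 passed. Rbp4, the plasma retinol carrier, which fat cells also secrete, was higher in mammary gland by 4.28 ± 0.25, with 38781 ± 4447 in mammary gland and 2067 ± 911 in lung and 43967 ± 3728 in liver. Its levels on the mammary gland arrays were close to those of liver, while Alb on the same arrays lay below every liver array. The part of hepatocyte transcripts in the Rbp4 signal was not tested.

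Surfactant and secreted epithelial proteins were higher in lung by large differences. Sftpc gave signals of 95991, 80602 and 81087 on lung arrays 2 to 4 and 7295, 659.8, 723 and 7756 on mammary gland arrays 1 to 4. Its difference was 5.19 ± 0.88 (adjusted p = 0.00152). Sftpa1, a collectin of surfactant that binds microbes, gave 48985, 47918 and 49266 on lung arrays 2 to 4 and 1549.9, 99.1, 409 and 1392 on mammary gland arrays 1 to 4. The organs differed by 6.32 ± 0.75. Mammary gland arrays 1 and 4 lay above arrays 2 and 3 for both, and every lung array lay above every mammary gland array. Sftpb was higher in lung by 6.06 ± 0.27 (49579.7 ± 1509 in lung and 736 ± 242 in mammary gland) and Sftpd by 6.58 ± 0.53 (28766 ± 5867 in lung and 331 ± 268 in mammary gland). Without mammary gland arrays 1 and 4 the difference was 6.88 for Sftpc and 7.62 for Sftpa1. Of the airway genes, Scgb1a1, the club cell secretory protein, was higher in lung by 5.86 ± 1.04 (23361 ± 631 in lung and 826 ± 905 in mammary gland), and by 7.86 without those arrays; with 1 array left out its difference (mammary gland minus lung) ran from -6.6 without mammary gland array 1 to -5.18 without array 3, and that of Sftpa1 was -5.6 without array 2. Defb4, a beta-defensin, an antimicrobial peptide, gave 64274, 41282 and 44375 on lung arrays 2 to 4 and 932, 128, 49.4 and 711.4 on mammary gland arrays 1 to 4. Chia, an acidic chitinase, was higher by 5.92 ± 0.38, Pla2g1b, a secreted phospholipase A2, by 5.87 ± 0.31, and Sec14l3, a lipid-binding protein of airway epithelium, by 5.001 ± 0.29. Of the 13 genes listed for alveolar type 2 cells 6 were measured, and 5 of these were higher in lung.

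The promoters of Sftpa1 and Scgb1a1 are shown because both hold CAAGTG, the core recognised by the lung transcription factor NKX2-1, whose transcript is described next. They are again from RefSeq's GRCr8 table, with the match on either strand in capitals. Sftpa1 is annotated on the plus strand at chr16:17042014-17042313 and Scgb1a1 on the minus strand at chr1:215409637-215409936.
Sftpa1: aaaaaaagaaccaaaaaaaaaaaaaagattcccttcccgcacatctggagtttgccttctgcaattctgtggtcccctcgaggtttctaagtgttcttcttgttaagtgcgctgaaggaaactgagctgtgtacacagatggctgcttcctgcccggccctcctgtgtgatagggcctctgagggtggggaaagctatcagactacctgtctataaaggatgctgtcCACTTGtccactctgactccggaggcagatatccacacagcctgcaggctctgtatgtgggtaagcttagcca
Scgb1a1: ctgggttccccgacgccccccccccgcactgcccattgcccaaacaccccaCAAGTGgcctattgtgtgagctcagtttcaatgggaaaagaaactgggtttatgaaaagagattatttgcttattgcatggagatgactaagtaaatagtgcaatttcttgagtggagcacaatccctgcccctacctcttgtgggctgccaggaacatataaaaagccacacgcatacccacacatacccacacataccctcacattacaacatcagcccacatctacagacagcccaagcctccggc
The match begins 23 bases before the start in Sftpa1, on the opposite strand, and 199 bases before the start in Scgb1a1. CAAGTG occurs on either strand in 13.8% of all promoters of the table, in 12.4% of those of genes higher in lung by at least 2 and in 16.9% of those of genes higher in mammary gland by at least 2. Over the 2836 promoters found for the 3436 genes tested the share was 10.9%. The hexamer is thus common, and the share of lung genes lies below that of the whole table and above that of the genes tested.

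Several transcription factors that pattern the lung were higher there. Nkx2-1, which directs alveolar and airway epithelial genes, gave 5363, 4402 and 3539 on lung arrays 2 to 4 and 300.2, 69.7, 208 and 235 on mammary gland arrays 1 to 4. This was a difference of 4.31 ± 0.38 (adjusted p = 5.22e-05). Tcf21, a factor of lung mesenchyme, gave 5234, 5475 and 5206 on lung arrays 2 to 4 and 52.4, 112, 52.5 and 61.3 on mammary gland arrays 1 to 4. Its difference was 5.66 ± 0.24. The forkhead factor Foxa2 was higher by 4.17 ± 0.34, the homeobox factor Hoxa5 by 2.45 ± 0.30 and Gata6 by 2.002 ± 0.19. Id1, an inhibitor of helix-loop-helix factors and a target of BMP signals, was higher by 2.06 ± 0.25, and the ligand Bmp4 itself by 3.60 ± 0.28 (2725 ± 289 in lung and 200.03 ± 87.0 in mammary gland). Of 11 patterning factors that passed the filter (22 measured of 39 listed), 8 were higher in lung and 3 did not pass. A factor high in lung alone meets the filter, so this count leans toward lung. Without the filter, 9 of the 22 were higher in lung and 13 did not pass, with a median of -0.72 (mammary gland minus lung). Foxj1, the factor of ciliated cells, did not pass the filter (250.3 ± 54.7 in lung and 106 ± 83.2 in mammary gland).

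Markers of the alveolar surface and its capillaries were higher in lung. Ager, the receptor for advanced glycation end products, which marks type 1 cells, gave 40895, 40478 and 43722 on lung arrays 2 to 4 and 398, 206, 165 and 844 on mammary gland arrays 1 to 4. The organs differed by 6.81 ± 0.45 (adjusted p = 1.06e-05). Pdpn, podoplanin, of type 1 cells and lymphatic vessels, was higher by 2.74 ± 0.29, and Vegfa, the growth factor of endothelium, by 3.20 ± 0.19. All 4 measured type 1 genes were higher in lung. Of 15 endothelial markers (15 measured of 25 listed), 10 were higher in lung, 1 was higher in mammary gland and 4 did not pass, with a median of -1.62. The adhesion molecule Icam1 gave 15638, 14685 and 15259 on lung arrays 2 to 4 and 2503, 1116, 1235 and 1765 on mammary gland arrays 1 to 4. This was a difference of 3.24 ± 0.27. Pecam1, the adhesion protein of endothelial junctions, was higher by 2.37 ± 0.32, the VEGF receptor Kdr by 1.95 ± 0.45 (1.32 without lung array 2) and Esm1, a proteoglycan of endothelial tip cells, by 3.13 ± 0.27. Sele, the selectin of activated venules, was the member higher in mammary gland, by 1.69 ± 0.56 at a low level (292 ± 145 in mammary gland and 64.3 ± 60.2 in lung), and it did not pass without mammary gland array 2, 3 or 4 or lung array 3 or 4 (adjusted p = 0.0772 to 0.119). Caveolin 1, Cav1, which coats the caveolae of endothelium and type 1 cells but also of fat cells, was higher in lung by 3.17 ± 0.48 (10371 ± 1100.4 in lung and 1329 ± 823 in mammary gland). The gap junction proteins Gja5 and Gja4 of arterial endothelium were higher by 3.24 ± 0.19 and 2.66 ± 0.48.

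Genes that set vessel tone were mostly higher in lung. Ace, the angiotensin-converting enzyme, which is abundant on lung capillaries, gave 11888, 9939.9 and 10002 on lung arrays 2 to 4 and 704, 619, 726 and 674 on mammary gland arrays 1 to 4. Its difference was 3.89 ± 0.16 (adjusted p = 1.01e-06). Agt, angiotensinogen, the precursor from which renin releases the substrate of Ace, was higher in mammary gland instead, by 2.61 ± 0.25, and so was the receptor Agtr1a, by 1.53 ± 0.27. Of 18 vasoactive and natriuretic genes that passed the filter (27 measured of 29 listed), 11 were higher in lung, 2 in mammary gland and 5 did not pass, with a median of -1.25. Vipr1, a receptor of vasoactive intestinal peptide, was higher in lung by 2.84 ± 0.30, Ptgis, the prostacyclin synthase, by 2.49 ± 0.53, endothelin 1, Edn1, by 2.32 ± 0.22, and Gucy1b1, a subunit of the nitric oxide receptor, by 2.25 ± 0.40. Of 17 prostaglandin and leukotriene genes that passed the filter (21 measured of 25 listed), 8 were higher in lung, 3 in mammary gland and 6 did not pass. Among those higher in lung, 3 serve leukotriene synthesis: Alox5 by 1.92 ± 0.50, its partner Alox5ap by 1.97 ± 0.30 and Lta4h by 1.46 ± 0.16. Anxa1, annexin A1, and Ptgds, a prostaglandin D synthase, were higher in mammary gland, by 1.38 ± 0.17 and 1.07 ± 0.29. Ptgds did not pass without mammary gland arrays 1 and 4 (adjusted p = 0.0675) or without these and lung array 2 (0.63, adjusted p = 0.0764).

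Several transport genes of the lung lining were higher in lung. Scnn1a, the alpha subunit of the epithelial sodium channel that clears fluid from alveoli, gave 9286, 14739 and 12169.9 on lung arrays 2 to 4 and 521, 396, 396 and 887 on mammary gland arrays 1 to 4. The difference came to 4.41 ± 0.30 (adjusted p = 1.21e-05). The gamma subunit Scnn1g was higher in lung by 1.10 ± 0.26. Atp1b1, a subunit of the sodium pump, was higher by 3.13 ± 0.26 (19055 ± 5210.1 in lung and 2134 ± 532 in mammary gland). S100g, a vitamin D-dependent calcium-binding protein, was higher by 6.42 ± 0.45. Of 23 genes of salt, water and acid transport that passed the filter (28 measured of 34 listed), 10 were higher in lung and 3 in mammary gland, these being Car3, Aqp7 and the potassium channel Kcnj8 (1.31 ± 0.29).

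Antigen presentation and T cell genes were mostly higher in lung over all 7 arrays in the deposited scaling, and other immune lists were divided. Of 22 cytokines, chemokines and receptors that passed the filter (34 measured of 39 listed), 6 were higher in lung, near the share over all probe sets, 3 in mammary gland and 13 did not pass. Of 15 complement and coagulation genes, 5 were higher in lung, 2 in mammary gland and 8 did not pass. Among the 6 cytokine genes higher in lung, Ccl5, a chemokine of T and NK cells, gave 8399, 7596 and 6769 on lung arrays 2 to 4 and 84.0, 159.8, 216 and 354 on mammary gland arrays 1 to 4. The difference came to 5.10 ± 0.36 (adjusted p = 1.46e-05). Cxcl3, a chemokine that draws neutrophils, gave 7528, 14200.4 and 13399.6 on lung arrays 2 to 4 and 77.0, 36.3, 7.60 and 116 on mammary gland arrays 1 to 4. Its difference was 7.001 ± 0.42. Lyz2, the lysozyme of macrophages and type 2 cells, was higher by 2.20 ± 0.24 (86012 ± 19711 in lung and 18908 ± 5357 in mammary gland). Of 8 genes of MHC class II and its processing that passed the filter (9 measured of 12 listed), 6 were higher in lung, with a median of 2.01 toward lung. The summed signal of the 9 was 159918 on lung array 2 and 94430 and 96713 on lung arrays 3 and 4. Without lung array 2 the count was also 6. The invariant chain Cd74 was higher by 1.53 ± 0.20, the chains RT1-Ba and RT1-Db1 by 2.48 ± 0.32 and 2.21 ± 0.28, and RT1-DMb, which loads peptides, by 2.09 ± 0.27, and close relatives in this family may share probes. Of 16 genes of MHC class I and interferon response (16 measured of 28 listed), 10 were higher in lung, among them the peptide transporter Tap1 (2.19 ± 0.72), which did not pass with any 1 lung array left out or without mammary gland array 3 (adjusted p = 0.0569 to 0.0944), nor under either other scaling (0.0568 and 0.0575), and whose difference was -1.43 without mammary gland array 4. The count of 10 fell to 7 after quantile normalization and to 8 without lung array 2. Of 12 markers of T and NK cells that passed the filter (17 measured of 23 listed), 9 were higher in lung, and 1, Thy1, was higher in mammary gland, where fibroblasts also carry it. Cd8a, the co-receptor of cytotoxic T cells, was higher in lung by 2.52 ± 0.53 and Cd3d by 1.75 ± 0.49, which without lung array 2 did not pass (adjusted p = 0.0656). The count of 9 fell to 4 without lung array 2 and to 5 after quantile normalization. Macrophage markers were split: of 11 that passed the filter (13 measured of 21 listed), 3 were higher in lung and 2 in mammary gland. Among red cell genes, the beta globin Hbb was higher in lung by 2.12 ± 0.19 (66334 ± 12112 in lung and 15235 ± 3103 in mammary gland), as was the erythroid heme enzyme Alas2 (2.06 ± 0.28), so blood transcripts lay on the same side as the immune genes and their part in those was not tested. Of the 3 neutrophil markers that passed the filter (8 measured of 15 listed), S100a8 and S100a9 were higher in lung by 2.78 ± 0.35 and 3.59 ± 0.36, and lipocalin 2, Lcn2, was higher in mammary gland by 0.90 ± 0.32 (adjusted p = 0.047), with groups that overlapped. Lcn2 did not pass without lung array 3 or 4 or mammary gland array 2, 3 or 4 (adjusted p = 0.0602 to 0.168). Actc1, the cardiac actin, was higher in lung (960.2, 1133 and 806 on lung arrays 2 to 4 and 42.7, 67.3, 40.9 and 52.0 on mammary gland arrays 1 to 4), while 8 of the 13 measured cardiac markers did not pass the filter on low values.

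Enzymes that handle foreign compounds and oxidants differed in both directions. Cyp2b2, a lung and liver cytochrome P450 whose probes may also read its close relative Cyp2b1, gave 30029, 38573 and 45529.5 on lung arrays 2 to 4 and 2386, 1524, 1213 and 2121 on mammary gland arrays 1 to 4. The organs differed by 4.39 ± 0.26. Cyp4b1 and Cyp2f4, cytochromes of club cells, were higher in lung by 2.70 ± 0.34 and 2.45 ± 0.26. Gpx2, the glutathione peroxidase of epithelium, gave 4343, 6198 and 5370.3 on lung arrays 2 to 4 and 263, 264, 118 and 130.5 on mammary gland arrays 1 to 4. This was a difference of 4.58 ± 0.30 (adjusted p = 9.74e-06). Prdx6, a peroxiredoxin that also turns over surfactant phospholipid, was higher in lung by 2.52 ± 0.16 (25793 ± 4551 in lung and 4413 ± 114 in mammary gland). Catalase, Cat, and Mgst1, a microsomal glutathione transferase, were higher in mammary gland by 1.67 ± 0.20 and 1.70 ± 0.17. Of 28 glutathione and antioxidant genes that passed the filter (30 measured of 34 listed), 10 were higher in lung, 6 in mammary gland and 12 did not pass, shares of the kind found over all probe sets. Of 24 drug and xenobiotic enzymes that passed the filter (29 measured of 38 listed), 6 were higher in lung and 9 in mammary gland. Those higher in mammary gland include Cyp2e1 (2.02 ± 0.22), Sult1b1 (2.48 ± 0.78) and Ugt2b1 (2.004 ± 0.34), whose means in liver were 73684 ± 7385, 11353 ± 1613 and 11321 ± 1771, on the same side as the hepatocyte markers. Sult1b1 did not pass without mammary gland array 1, 3 or 4 or lung array 3 or 4 (adjusted p = 0.0513 to 0.11), and was higher by 3.59 without lung array 2. Without mammary gland arrays 1 and 4 together its difference was 1.975 (adjusted p = 0.148).

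Some retinoid genes, members of the system the agents act on, differed between the untreated organs. Aldh1a1, which oxidises retinal to retinoic acid, gave 15318, 24379 and 25156 on lung arrays 2 to 4 and 1166, 942, 794 and 895 on mammary gland arrays 1 to 4. Its difference was 4.43 ± 0.23 toward lung (adjusted p = 2.81e-06). Aldh1a2, a second enzyme of this step, was higher in lung by 2.57 ± 0.48. The cellular retinoic acid binding proteins lay the other way: Crabp1 gave 892, 936, 768 and 1408 on mammary gland arrays 1 to 4 and 195, 63.9 and 138 on lung arrays 2 to 4, and Crabp2 gave 834, 610.1, 753 and 1299.6 on mammary gland arrays 1 to 4 and 47.0, 44.3 and 170.5 on lung arrays 2 to 4. Their differences were 2.65 ± 0.33 and 2.95 ± 0.40, and for neither did the groups overlap. Of the receptors, Rara was higher in lung by 0.78 ± 0.26 (4748 ± 572 in lung and 2861 ± 1082 in mammary gland) but did not pass with any 1 array left out other than mammary gland array 3 (adjusted p = 0.0619 to 0.133), and the retinoid X receptors Rxra (404 ± 183 in lung and 249 ± 84.7 in mammary gland) and Rxrg (1097 ± 442 in lung and 1585 ± 182 in mammary gland) did not pass. Rxrg passed, higher in mammary gland, under both other scalings (adjusted p = 0.0343 and 0.0269), with array weights (0.0107), in the fit of all 43 arrays (0.0378), without lung array 2 (0.0126) and without mammary gland arrays 1 and 4 and lung array 2 (0.00391). Rxra passed, higher in lung, with array weights (adjusted p = 0.0302). Of the 13 retinoid genes that passed the filter (15 measured of 23 listed), 3 were higher in mammary gland, 3 in lung and 7 did not pass. These shares are of the kind found over all probe sets (17.3% and 26.6%).

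Many genes of growth and protein synthesis also differed between the organs. Of 35 ribosomal protein genes (35 measured of 75 listed), 22 were higher in mammary gland, 1 was higher in lung and 12 did not pass, with a median of 0.70. After quantile normalization 17 were higher in mammary gland and 6 in lung, so the smaller differences in this family follow the scaling. Rpl21 was higher by 2.64 ± 0.51 (3.40 without lung array 2), Rpl3 by 1.36 ± 0.11 and Rpl23 by 1.13 ± 0.11, with groups that did not overlap. Of 18 cell cycle genes (24 measured of 34 listed), 7 were higher in lung and 1 in mammary gland. The G1 cyclins Ccnd1, Ccnd2 and Ccnd3 were higher in lung by 2.20 ± 0.26, 1.44 ± 0.33 and 1.47 ± 0.20. Pcna, the sliding clamp of DNA replication, was higher in mammary gland by 0.58 ± 0.20, but it passed with 1 array left out only where that was mammary gland array 4 (adjusted p = 0.0196), and otherwise did not (0.0654 to 0.134). Of 20 heat shock and unfolded protein genes that passed the filter (22 measured of 27 listed), 6 were higher in lung, 3 in mammary gland and 11 did not pass. These shares are of the kind found over all probe sets. Those higher in lung included the small heat shock protein Cryab (3.77 ± 1.18) and the inducible Hspa1a (2.64 ± 0.27), while the mitochondrial chaperone Hspd1 was higher in mammary gland by 1.46 ± 0.20. Cryab did not pass with any 1 lung array left out (adjusted p = 0.05 to 0.0845), and without mammary gland array 4 its difference was -2.47.

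Some bright transcripts had narrow intervals around 0 in the deposited scaling, but their direction depends on the scaling. Tmsb4x, thymosin beta 4, which binds actin monomers, gave 74679.9, 70821, 69643 and 82252 on mammary gland arrays 1 to 4 and 82992, 68968 and 71590.5 on lung arrays 2 to 4, and its difference had a 95% interval of -0.26 to 0.25. After quantile normalization it was -0.52 (mammary gland minus lung, adjusted p = 0.0019), and with arrays shifted to the same median 0.27 (adjusted p = 0.0633). Hsp90ab1, a constitutive chaperone, had an interval of -0.11 to 0.52 in the deposited scaling, but its difference was -0.32 after quantile normalization (adjusted p = 0.0312) and 0.47 with arrays shifted to the same median (adjusted p = 0.0156), so it passed in opposite directions. The brightest probe set of Psap, prosaposin, gave 37806 ± 1835 in mammary gland and 37123 ± 3929 in lung, but its other probe sets were higher in lung by 2.69 ± 0.24 and 3.40 ± 0.34. Of 17 skeletal muscle markers that passed the filter (29 measured of 32 listed), 4 were higher in mammary gland, 1 was higher in lung and 12 did not pass. Those higher in mammary gland were Car3, which fat cells also make, the acetylcholine receptor subunit Chrna1 (1.51 ± 0.41), the skeletal actin Acta1 (1.33 ± 0.33) and the myosin Myh1 (0.86 ± 0.25). Without lung array 3 or 4, neither Chrna1 (adjusted p = 0.0616 and 0.063) nor Myh1 (0.0782 and 0.0538) passed. The glycogen phosphorylase Pygm was higher in lung by 1.63 ± 0.34, and the creatine kinase Ckm did not pass (386 ± 93.1 in mammary gland and 333 ± 54.7 in lung).

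Probe sets of a gene did not always agree. Of 980 genes with several probe sets tested, 713 had at least 1 that passed; in 249 every probe set passed in the same direction, in 436 some passed in 1 direction and others did not pass, and in 28 they passed in opposite directions. Acly, the ATP citrate lyase that supplies acetyl-CoA to fatty acid synthesis, was higher in mammary gland by 1.20 ± 0.17 and 1.54 ± 0.11 in its probe sets of highest signal and higher in lung by 1.77 ± 0.41 in another. Fn1, fibronectin, was higher in mammary gland by 0.87 ± 0.13 and in lung by 1.44 ± 0.30 in another probe set, and Bdnf, a neurotrophin, in mammary gland by 1.75 ± 0.35 and in lung by 1.17 ± 0.37. Rab11b, a GTPase of recycling endosomes, had a probe set higher in mammary gland by 0.78 ± 0.17 and others higher in lung by 1.93 ± 0.21 and 3.74 ± 0.30. Hsd17b4, of the fatty acid oxidation list, was higher in mammary gland by 0.79 ± 0.14 and 1.31 ± 0.25 and in lung by 2.31 ± 0.38 in another probe set. For Idh2, of the citrate cycle list, the values were 0.67 ± 0.14 toward mammary gland and 2.04 ± 0.55 toward lung. In these genes the direction depends on the probe set read, and which transcript each probe set reads is not given in the sources used here.

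Liver was set beside both organs to see which differences are particular to 1 of the 3. In a fit of the 11 diet arrays, 62.5% of the probe sets passed between mammary gland and liver and 59.6% between lung and liver. By level, 713 probe sets were highest in mammary gland (12.5%), 1013 in lung (17.7%) and 666 in liver (11.6%), each passing against both other organs. Of the 988 probe sets higher in mammary gland than in lung, liver was above lung for 337, below lung for 348 and did not pass against lung for 303. Of the 1520 higher in lung, liver was above mammary gland for 597, below it for 319 and did not pass for 604. Fabp4, Krt5, Dcn and S100b were low in liver (23.1 ± 13.8, 65.0 ± 58.4, 705 ± 148 and 66.1 ± 52.6), and so were Ager, Sftpa1 and Scnn1a (129 ± 56.1, 186 ± 169 and 402 ± 77.9). Acsl1 (15147 ± 1365), Ghr (15836 ± 4053) and Me1 (1870.4 ± 347) were shared by mammary gland and liver at levels above lung, and Gjb1 and Ceacam1, which were higher in lung than in mammary gland by 1.19 ± 0.27 and 1.81 ± 0.49, had their highest means in liver (13032 ± 1209 and 1569 ± 277). Ceacam1 did not pass between lung and mammary gland without lung array 4 (adjusted p = 0.0633).

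The same organ difference was measured again in arrays of treated rats, which share no array with the untreated groups. Within 9cRA (4 mammary gland and 4 lung arrays) 2565 of the 5719 probe sets passed (44.9%), within 4HPR (3 and 4 arrays) 2567 passed (44.9%) and within Targretin (3 and 3 arrays) 2068 passed (36.2%, with 20.4% higher in lung). Of the 2508 that passed in untreated rats, 98.9% had the same direction with 9cRA and 78% passed in it; the shares were 99.7% and 79.8% with 4HPR, and 89.7% and 55.2% with Targretin. With 9cRA 1 of them passed in the opposite direction, and with Targretin 11 did. Targretin lung array 2 correlated less with the other Targretin lung arrays (0.865 and 0.861) than those did with each other (0.947), and without it 1985 probe sets passed, 93.5% of the 2508 had the same direction, 58.4% passed in it and 9 passed in the opposite direction. Hepatocyte transcripts differed between these groups as well: Alb was 14906 to 35000.2 on the mammary gland and 3388 to 5613 on the lung arrays of 9cRA, 21916 to 42008 and 6949 to 35889 with 4HPR, and 1497 to 4725 and 40.1 to 355 with Targretin. For Csn1s1 the difference was 5.86 ± 0.64 with 9cRA, 6.73 ± 0.69 with 4HPR and 8.98 ± 0.74 with Targretin, beside 9.13 without an agent. Fabp4 gave 7.36 ± 0.49, 6.73 ± 0.53 and 8.16 ± 0.56, beside 7.21. Toward lung, Sftpa1 gave 7.38 ± 0.49, 5.02 ± 0.53 and 7.71 ± 0.57, beside 6.32, and Ager gave 6.45 ± 0.37, 5.20 ± 0.40 and 6.36 ± 0.43, beside 6.81. The direction of each of these genes was the same in all 4 settings.

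**Figure D5:**
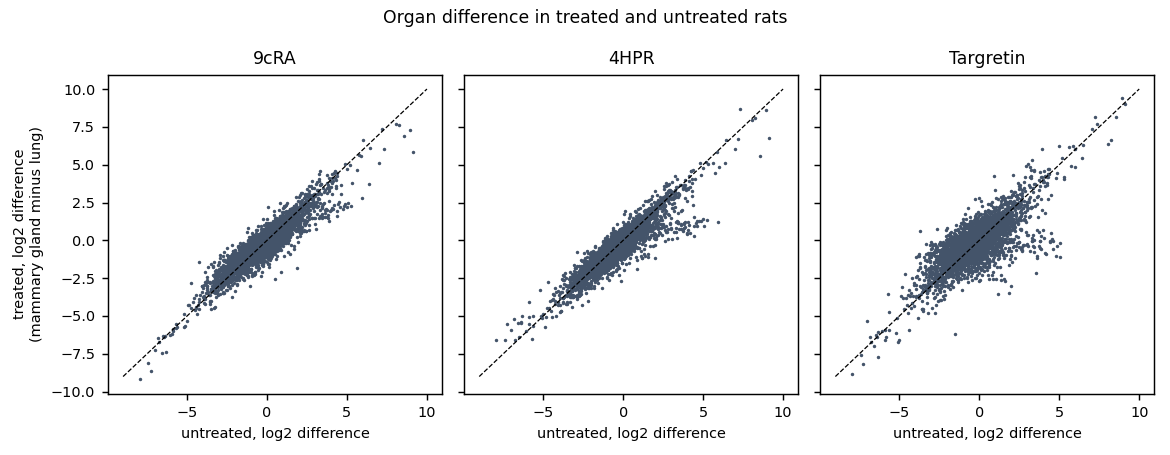
Difference between the organs (log2, mammary gland minus lung) in treated rats against that in untreated rats for the 5719 probe sets tested, in 1 panel per agent, with the line of equality dashed. Points follow the line in each panel, and the spread around it is widest with Targretin, where 89.7% of the probe sets that passed in untreated rats kept their direction.

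Whether the organ difference changed with the agent was tested with a moderated F test over the 28 arrays of mammary gland and lung. It passed for 6 of 5719 probe sets (0.105%). An unadjusted p under 0.05 was found for 686, a larger share than the 0.05 that this cut-off lets through where nothing changes. A probe set that did not pass is therefore not shown to be unchanged. The smallest adjusted p was that of Serpina1, the liver-made protease inhibitor alpha-1-antitrypsin, at 0.00348: its difference was 1.84 ± 0.39 untreated, 0.74 ± 0.45 with 9cRA, 0.37 ± 0.49 with 4HPR and -3.47 ± 0.52 with Targretin. Pon1, a paraoxonase of liver and plasma, had 1.35 ± 0.31, 1.31 ± 0.49, 0.08 ± 0.53 and -2.64 ± 0.56, in the same order. Alb, which did not pass this test (adjusted p = 0.359), had 5.27 ± 1.42, 2.26 ± 0.50, 1.33 ± 0.54 and 4.16 ± 0.58. Serpina1, Pon1, Sult2a1 and Cyp2c23 are made in liver, and the part of hepatocyte transcripts on these arrays was not tested. For Serpina1 and these genes the probe set that passed this test is given. The others were Prkce, a protein kinase C, at an adjusted p of 0.0331, and a probe set without a gene name. Without diet lung array 2, 93 probe sets passed, and without any other single diet array 1 to 8 did. No treated array was left out of this test. Only Targretin was given by gavage, so in its groups agent and gavage cannot be told apart.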

How the data were processed

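RNA of mammary gland, lung and liver was measured on 1 Affymetrix rat array per sample. Per the labels, the authors computed an intensity for each probe set with MAS5 and deposited it on a linear scale; its detection calls were not used here. The trimmed mean of the 7 arrays lay between 1502 and 1503, so they had been scaled globally, and no further scaling was applied. Of 8799 probe sets, 59 controls were left out. Names came from the platform annotation, updated to RefSeq symbols: of 8740 probe sets, 7006 had 1 gene symbol, 308 had several and 1426 had none. Intensity was converted to log2 after a pseudocount of 38.3 (the 10th percentile). Tests were run where a signal was above the 40th percentile on at least 3 of the 7 arrays. The groups were compared with limma 3.58.1 in R 4.3.3 (lmFit, eBayes with trend), with Benjamini-Hochberg adjustment across 5719 probe sets. A 95% interval comes from the same fit. Treated arrays were fitted apart from untreated ones, liver in a fit of the 11 diet arrays. The number of arrays limits the precision. The procedure was tested on simulated data.

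The comparison, the lists of genes and the naming rule were chosen with earlier results of these data known. The rule names the 25 genes with the largest passing difference each way without overlap, up to 8 passing members each way and 4 others per list, members of related pairs, genes whose probe sets pass in opposite directions, 8 alike genes and the 8 smallest p-values of the test by agent. Pparg and Xdh were named outside it, after their values were seen. Lists hold 1 probe set per gene. Alternatives were quantile normalization, a shift to the same median, no filter, a pseudocount 4 times larger, a block for array number, array weights, a fit of all 43 arrays, no trend, and leaving out each array. Chosen after the data were seen were leaving out mammary gland arrays 1 and 4, these with lung array 2, Targretin lung array 2, and the liver-dominant probe sets.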

Additional observations from a re-analysis of the deposited data

Results flagged for a closer look

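Of the 4 mammary gland arrays, 1 lay far from the other 3 for some of the genes named here, by the gap to its nearest neighbour as a share of the whole range on the log2 scale (above Dixon's critical value). Chance alone does this for about 1 in 20 groups, and here it was 15 of 211 genes. Array 1 was the one apart for Dcn (0.952), Scd (0.908), Csn2 (0.893), Lalba (0.866) and Cpa3 (0.833), below the others for all of these but Scd. Array 4 lay below the others for Igfbp3 (0.941), Cyp4b1 (0.933), Cryab (0.902), Alb (0.895), Ptgis (0.882) and Plod2 (0.881). Cryab gave 1300.4, 1658, 1902 and 5.60 on mammary gland arrays 1 to 4 and 6512, 9853 and 11465 on lung arrays 2 to 4, so mammary gland array 4 is near zero while the others are not. Array 2 lay above the others for Myh1 (0.901), Cd3d (0.893) and Atp5po (0.853), and array 3 below them for Itga1 (0.879).

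The organ difference varied between the diet and agent groups, by the F test over 28 arrays, for 6 probe sets: Serpina1 (adjusted p = 0.00348), Pon1, Sult2a1, Cyp2c23, Prkce and a probe set without a gene name (adjusted p = 0.0331 each). Targretin was given by gavage and the other groups were not, so agent and gavage cannot be told apart. Sult2a1, a liver sulfotransferase, had 1.55 ± 0.39 with 9cRA, 0.75 ± 0.42 with 4HPR and -2.18 ± 0.45 with Targretin, beside 3.52 ± 0.87 untreated. For Cyp2c23, a cytochrome of arachidonic acid metabolism, the values were 0.50 ± 0.42, 0.33 ± 0.45 and -2.57 ± 0.48, beside 1.04 ± 0.33.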

How the results depend on the processing

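Of 209 named genes tested, 179 kept their direction and their side of the threshold under every alternative. The others lost the call (22 genes), gained it (7) or changed sign (4) under at least 1; the cause was not tested. Changes of sign were seen for Hsp90ab1 (-0.32 after quantile normalization), Lep (0.0904 with arrays shifted to the same median), Psap (-0.46 after quantile normalization, -0.0016 without mammary gland arrays 1 and 4, -0.047 to 0.11 with 1 array left out) and Tmsb4x (0.27 with the same median, 0.032 with array weights, -0.055 to 0.078 with 1 array left out). Their differences in the deposited scaling lie near 0. The count passing in untreated rats was 1913 to 2614 with 1 array left out and 2478 to 3194 with other scalings, filters or models on all 7 arrays, and 2415 without the liver-dominant probe sets. The test of organ difference by agent passed for 6 probe sets, against 3 after quantile normalization. With 1 diet array left out the count was 1 to 93: 93 without lung array 2, 2 without lung array 3, and 1 without lung array 4 or mammary gland array 1 or 2. No treated array was left out of this test, Targretin lung array 2 included. Between the organs, deviations from the group means correlated at -0.14, 0.19 and -0.06 for array numbers 2 to 4. Lung array 2 correlated best with mammary gland array 1 (0.27). With 3 lung arrays, these correlations cannot decide whether equal numbers pair the organs. With the replicate number as a block, over arrays 2 to 4, 2341 probe sets passed. Of 1800 counts of list members recomputed, 155 moved by more than 1.5 times. Dim signals near the pseudocount have understated differences.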

Other observations

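Further gene groups differed without a common direction. Of 16 genes of the insulin, growth hormone and IGF axis that passed the filter (20 measured of 22 listed), 5 were higher in mammary gland, 2 were higher in lung and 9 did not pass. Igf1, the growth factor that liver releases on growth hormone, gave 13229.7, 5770, 6954 and 10808 on mammary gland arrays 1 to 4 and 3704, 2258 and 2039 on lung arrays 2 to 4, a difference of 1.74 ± 0.32 (adjusted p = 0.00251). The binding proteins Igfbp3 and Igfbp2 were higher in mammary gland by 1.74 ± 0.34 and 1.71 ± 0.23, and the receptor Igf2r was higher in lung by 0.77 ± 0.16. Of 32 growth factors and receptors (43 measured of 52 listed), 12 were higher in lung and 6 in mammary gland. The fibroblast growth factor receptors Fgfr4 and Fgfr2 were higher in lung by 3.21 ± 0.31 and 2.39 ± 0.39 (2143 ± 217 in lung and 209 ± 82.5 in mammary gland for Fgfr4), and pleiotrophin, Ptn, was higher in mammary gland by 3.25 ± 0.42.

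Of 8 smooth muscle and pericyte genes that passed the filter (10 measured of 14 listed), 2 were higher in each organ and 4 did not pass: Acta2, the actin of smooth muscle and myoepithelial cells, was higher in mammary gland by 1.65 ± 0.22 and calponin, Cnn1, by 1.27 ± 0.23, while the integrin Itga1 was higher in lung by 1.93 ± 0.30 and caldesmon, Cald1, by 0.82 ± 0.29 (adjusted p = 0.0445), with groups that overlapped; Cald1 did not pass without mammary gland array 2 or 3 or lung array 3 or 4 (adjusted p = 0.0939 to 0.166). Of 8 circadian genes that passed the filter (9 measured of 17 listed), Bhlhe41 was higher in mammary gland by 2.10 ± 0.32, Nr1d1 and Tef were higher in lung by 1.13 ± 0.27 and 0.77 ± 0.19, and 5 did not pass. The hour at which tissue was taken was not used here.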
